A study of Mus musculus with 9 samples.

Results

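The genes described here are 10 mouse genes of the germline and of pluripotent cells, *Rhox5*, *Dppa2*, *Dppa4*, *Gtsf1*, *Piwil2*, *Syce1*, *Sohlh2*, *Nxf3*, *Dazl* and *Pou5f1*, in T-cell lymphomas that came to keep up their telomeres without telomerase, by the recombination-based route called alternative lengthening (ALT). The genes were proposed because of their signals in ALT tumours against telomerase tumours in these same arrays, so their difference between those groups is given as a description, with no test. All probe sets that the array annotation assigns to them were taken, with no filter on low signal. That gave 13 of 45101 probe sets and 10 of 18194 genes, with 2 probe sets each for *Dppa2*, *Gtsf1* and *Dazl*, and 1 for each of the other 7 genes.

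The arrays hold total RNA of 9 tumours grown in SCID mice, which have no mature B or T cells of their own. All are labelled G3 Atm-/-TERT-ER: they lack the DNA damage kinase Atm and carry telomerase reverse transcriptase fused to an oestrogen receptor part, which 4-hydroxytamoxifen (4-OHT) switches on. The ALT group is 5 tumours from recipients given vehicle, at passage 4. The telomerase group is 3 tumours from recipients given 4-OHT, also at passage 4, and 1 further array is the parental tumour, labelled as using telomerase. Loss of Atm is shared by all groups, and the groups differ in drug, telomerase activity and telomere route together, so these cannot be told apart. The tumours are named below by group and number. The labels do not tie a tumour to an animal or a line of its own, so a p-value here speaks of the spread between arrays, which may be technical.

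In somatic tissues many genes of germ cells and early embryos are kept silent, in part by methylation of CpG dinucleotides near their start and by repressor complexes that place histone marks there. In germ cells the PIWI proteins and their small RNAs (piRNAs) silence transposons, and the synaptonemal complex holds paired chromosomes together in meiosis. Expression of such genes in tumours is well known, and their products are often called cancer-testis antigens.

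Start regions of these genes are shown because silencing of this kind acts on CpGs near the start. RefSeq (GRCm38.p6) held a window of 250 bases before to 50 after the start for 6 of the 10 genes. The 4 printed here are from 3 genes whose signal was higher in all ALT tumours and, for contrast, from *Dazl*, whose signals overlapped between groups. They are written 5′ to 3′ on the gene's strand, with each CpG in capitals. They lie at chrX:37754358-37754657 (plus strand) for *Rhox5*, chr15:103430378-103430677 (minus) for *Gtsf1*, chr7:140787805-140788104 (minus) for *Syce1* and chr17:50293571-50293870 (minus) for *Dazl*.
Rhox5: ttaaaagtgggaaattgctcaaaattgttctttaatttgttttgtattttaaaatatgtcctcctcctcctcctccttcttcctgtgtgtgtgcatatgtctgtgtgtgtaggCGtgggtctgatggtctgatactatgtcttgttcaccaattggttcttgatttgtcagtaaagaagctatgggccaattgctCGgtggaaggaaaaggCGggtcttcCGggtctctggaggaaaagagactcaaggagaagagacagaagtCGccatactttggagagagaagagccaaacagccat
Gtsf1: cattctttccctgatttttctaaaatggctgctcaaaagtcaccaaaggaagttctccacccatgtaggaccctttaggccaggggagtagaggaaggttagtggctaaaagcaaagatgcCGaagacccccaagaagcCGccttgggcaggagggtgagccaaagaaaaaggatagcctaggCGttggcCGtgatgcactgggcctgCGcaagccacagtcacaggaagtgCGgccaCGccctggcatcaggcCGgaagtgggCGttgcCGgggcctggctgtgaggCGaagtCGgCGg
Syce1: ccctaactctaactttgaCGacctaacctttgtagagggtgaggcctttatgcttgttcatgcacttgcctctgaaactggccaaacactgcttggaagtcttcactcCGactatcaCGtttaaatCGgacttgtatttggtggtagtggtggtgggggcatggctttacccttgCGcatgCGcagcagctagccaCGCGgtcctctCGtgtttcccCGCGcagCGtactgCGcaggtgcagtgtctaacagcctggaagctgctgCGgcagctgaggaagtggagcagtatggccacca
Dazl: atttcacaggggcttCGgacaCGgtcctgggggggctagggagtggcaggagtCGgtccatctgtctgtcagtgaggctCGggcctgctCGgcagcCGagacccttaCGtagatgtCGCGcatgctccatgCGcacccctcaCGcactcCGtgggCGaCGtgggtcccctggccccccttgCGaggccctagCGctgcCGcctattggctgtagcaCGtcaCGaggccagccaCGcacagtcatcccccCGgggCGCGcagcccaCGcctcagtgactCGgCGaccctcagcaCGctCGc

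The *Rhox5* window held 5 CpGs, and its ratio of observed to expected CpGs was 0.363, against a median of 0.384 over all 32851 windows. The *Gtsf1* window held 13 (ratio 0.531), the *Syce1* window 14 (0.625) and the *Sohlh2* window 17 (0.545). *Dazl* had the most CpGs of the 6 genes with 28 (0.795, above 78.7% of all windows), and the 2 windows of *Pou5f1* held 11 and 6. The letters CACGTG, an E-box bound by MAX and MGA, and GGCGGGA, an E2F-type motif, were looked for on both strands. Neither was found in any of the 7 windows, and over all windows 7.15% hold the first and 11.3% the second.

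Each value is a MAS5 signal, a linear intensity in arbitrary units. Array medians lay between 39.8 and 43.8, and 28.2% to 30.7% of signals on each array were below 16. The table has no detection calls, so no signal can be called absent, and the number of arrays limits the precision. Signals of different probe sets are not set against each other. T-cell markers were strong in every array (9 of 10 listed markers measured, summed signal 26229 to 32717 in ALT and 34450 to 37232 in telomerase tumours). *Cd3g*, *Cd3e* and *Cd3d* were lower in ALT, with differences in log2(signal + 16) of −0.82, −0.50 and −0.39. Those of the other measured T-cell markers lay between −0.04 (*Cd5*) and 0.94 (*Cd2*). Pancreatic acinar transcripts were high in ALT 1, ALT 2, ALT 5 and telomerase 3 (11 of 14 markers, sums of 85590.0 to 171000.0 in those 4 arrays, and 277 to 954 in the other 5). Skeletal muscle transcripts were high in telomerase 1 and the parental tumour (8 of 8 markers, sums of 7137 and 11270.0, against 208 to 484 elsewhere). In bulk tissue, fewer cells of a type and less RNA per cell cannot be told apart.

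By signal, 8 of the 10 genes (10 of the 13 probe sets) were higher in all 5 ALT tumours than in all 3 telomerase tumours, and *Dazl* and *Pou5f1* were not, so the idea of a gain in ALT does not hold for that pair. Over all 18194 genes 8.27% had that pattern, and over 34958 probe sets 7.56%, but the genes were chosen from this contrast and nothing is read from the count. A set of large differences held *Rhox5*, *Nxf3*, *Dppa4* and *Gtsf1*, with ratios of ALT to telomerase means from 21.0 for *Gtsf1* to 180 for *Rhox5*. *Gtsf1* still had a telomerase signal of 106 to 138. A set of smaller ones held *Syce1*, *Dppa2* and *Piwil2*, with ratios from 2.31 for *Piwil2* to 3.65 for *Syce1*. The others were near the bottom of the scale or without a clear difference (*Sohlh2*, *Dazl*, *Pou5f1*). The parental tumour lay nearer to the telomerase mean than to the ALT mean for 10 of 10 genes. This rests on 1 array and has no share over all genes beside it, so nothing is read from that count either. It includes *Dazl* and *Pou5f1*, and for *Pou5f1* the parental signal of 98.0 lay below the telomerase range of 115 to 139.6. The plot of member signals by array shows all of these values.

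**Figure D1:**
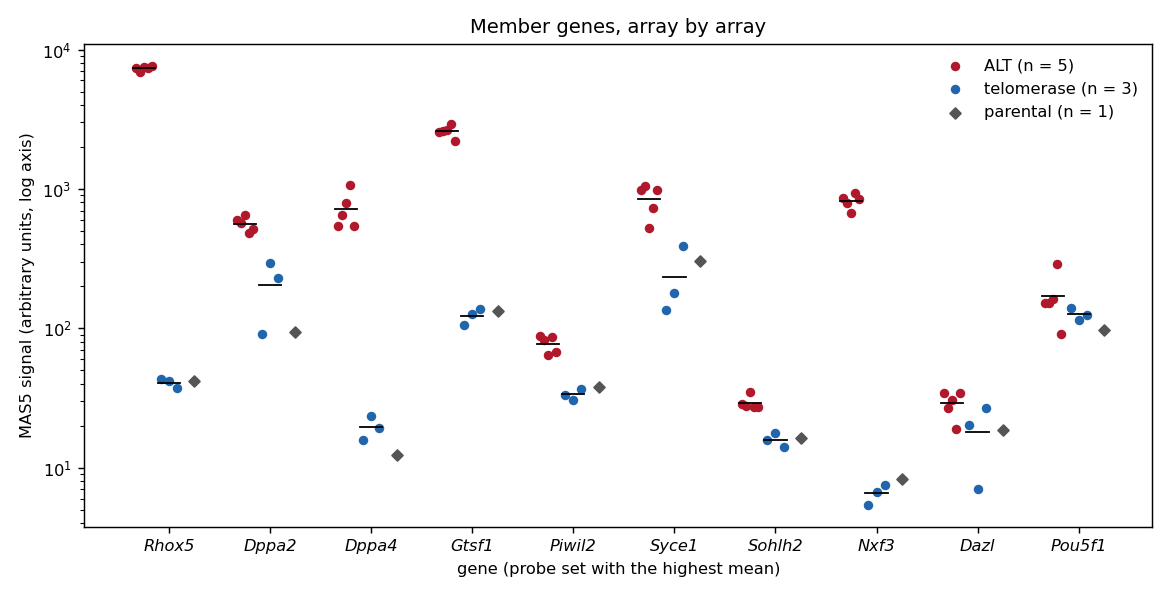
MAS5 signal (log axis, arbitrary units) of the 10 genes, each through its probe set with the highest mean, in 5 ALT (red), 3 telomerase (blue) and 1 parental (grey diamond) tumours; points are arrays and bars are group means. The ALT points of Rhox5, Nxf3, Dppa4 and Gtsf1 sit far above the other arrays, and the points of Dazl and Pou5f1 overlap between groups.

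Transcription and chromatin factors come first. *Rhox5* is an X-linked homeobox gene normally read in the reproductive tract, where Sertoli cells of the testis use it, and in extraembryonic tissue. Its signal (probe set 1423429_at) was 7375, 6899.6, 7466, 7409 and 7631 in ALT 1 to 5, against 43.0, 41.8 and 37.6 in telomerase 1 to 3, and it was 41.8 in the parental tumour. The groups were apart by 160.3-fold even between the lowest ALT and the highest telomerase tumour. The 5 ALT values were nearly level, with a coefficient of variation of 3.72%.

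*Dppa4* and *Dppa2* are neighbours on chromosome 16 and encode related DNA-binding proteins of pluripotent cells that act as a pair. *Dppa4* (1429597_at) gave 542, 646, 793, 1076 and 540.2 in ALT 1 to 5, against 15.8, 23.5 and 19.19 in telomerase 1 to 3, and 12.3 in the parental tumour. The ALT values varied by 1.99-fold among themselves, with the highest in ALT 4 and ALT 3, the arrays with few pancreatic transcripts.

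*Dppa2* was at 597, 568, 649, 484 and 512 in ALT 1 to 5 and at 91.5, 294 and 229 in telomerase 1 to 3 (probe set 1453223_s_at), with 94.2 in the parental tumour. Its second probe set, 1429654_at, gave 303 to 376 in ALT and 57.7 to 138 in telomerase tumours. *Dppa2* had a signal in telomerase 2 and 3 well above that in telomerase 1 and the parental tumour, in both probe sets. *Dppa4* was also higher in telomerase 2 and 3 than in those arrays, but all its values there were low (12.3 to 23.5). Telomerase 1 and the parental tumour are also the arrays with skeletal muscle transcripts, whose part in the *Dppa2* difference was not tested. The mean *Dppa2* signal was 2.74-fold higher in ALT. For *Dppa4*, whose telomerase signals lie near the pseudocount of 16, the log2 difference was 4.33 and ran from 3.19 with a pseudocount of 64 to 5.10 with 1.

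*Sohlh2*, a helix-loop-helix transcription factor of early spermatogenesis and oogenesis, stayed low throughout. Its probe set 1429817_at read 28.5, 27.5, 35.1, 27.1 and 27.4 in ALT 1 to 5, 15.9, 17.6 and 13.96 in telomerase 1 to 3, and 16.3 in the parental tumour. The groups did not overlap, but all values lie where signal depends most on background. *Pou5f1*, which encodes the pluripotency factor OCT4, did not separate the groups. Its probe set 1417945_at gave 153, 152, 162, 289 and 91.2 in ALT 1 to 5, against 139.6, 115 and 126 in telomerase 1 to 3, and 98.0 in the parental tumour, so that ALT 4 was the highest of all arrays and ALT 5 the lowest.

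Of the piRNA pathway, *Gtsf1* encodes a small zinc finger protein that works with PIWI proteins in male germ cells. Its probe set 1441836_x_at gave 2544, 2621, 2658.5, 2922 and 2225 in ALT 1 to 5, and 106, 126 and 138 in telomerase 1 to 3, with 134 in the parental tumour. The x in such a name marks probes that may also match other transcripts, but the second probe set, 1452967_at, without that mark, showed the same separation, with 1213 to 1739 in ALT and 45.4 to 98.1 in telomerase tumours. Both probe sets ranked ALT 4 first and ALT 5 last among the ALT tumours.

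*Piwil2*, which encodes the PIWI protein MILI (1449170_at), was at 87.4, 81.9, 64.25, 86.0 and 68.0 in ALT 1 to 5, against 33.4, 30.45 and 36.8 in telomerase 1 to 3, and 38.1 in the parental tumour. The groups did not overlap and the ratio of means was 2.31. On the log2(signal + 16) scale used for differences the gap was 0.91, and it ran from 0.53 to 1.18 over the other settings because the signals are low.

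*Syce1* encodes a protein of the central element of the synaptonemal complex. Its probe set 1428685_at read 975, 1044, 524, 732 and 977 in ALT 1 to 5, and 135, 178 and 387 in telomerase 1 to 3, with 305 in the parental tumour. The highest telomerase value and the 3 highest ALT values came from the 4 arrays with pancreatic transcripts. Among arrays with few of them the mean was 628 in ALT 3 and 4 against 156 in telomerase 1 and 2, and among arrays with them it was 999 in ALT 1, 2 and 5 against 387 in telomerase 3. The difference had the same direction in both, with a ratio of 4.015 in the first and 2.58 in the second.

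Of the RNA-handling genes, 1 separated the groups and 1 did not. *Nxf3*, an X-linked relative of the main mRNA export receptor (1456035_at), gave 864, 790.4, 669, 930.4 and 851 in ALT 1 to 5, against 5.41, 6.71 and 7.53 in telomerase 1 to 3, and 8.26 in the parental tumour. The telomerase and parental values lie below the pseudocount, so the log2 difference of 5.21 depends on it and was 6.77 with a pseudocount of 1 and 3.64 with 64. *Dazl*, an RNA-binding protein gene needed for germ cell development, overlapped between groups: the brighter probe set, 1449502_at, gave 34.5, 27.0, 30.8, 18.95 and 34.5 in ALT 1 to 5, against 20.3, 7.04 and 26.9 in telomerase 1 to 3, and 18.6 in the parental tumour. Its other probe set, 1419542_at, stayed between 1.13 and 3.01 in ALT and between 1.97 and 6.39 in telomerase tumours.

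The ALT tumours did not share a single order across these genes. The highest ALT value was in ALT 4 for 4 genes (*Dppa4*, *Gtsf1*, *Nxf3* and *Pou5f1*), in ALT 3 for 2, in ALT 5 for 2 and in ALT 1 and ALT 2 for 1 each. The lowest was in ALT 3, ALT 4 and ALT 5 for 3 genes each. Among the 8 genes whose groups did not overlap, the coefficient of variation of the brightest probe set over the ALT tumours was 3.72% for *Rhox5*, between 9.67% and 13.8% for *Gtsf1*, *Sohlh2*, *Dppa2*, *Nxf3* and *Piwil2*, and 25.6% for *Syce1* and 31.2% for *Dppa4*. The last pair moved in opposite ways with the pancreatic transcripts, as the plot of spread among ALT tumours shows. *Dppa4* averaged 934 in the ALT arrays with few of them and 576 in those with them. Their part in either difference was not tested. Within each set of arrays all ALT values were above all telomerase values for 9 of 10 genes. The sets hold only 2 ALT against 2 telomerase tumours and 3 against 1, so separation comes easily. The count includes *Pou5f1* in the arrays with few pancreatic transcripts. In those with them it includes *Dazl*, at 26.97 in ALT 2 against 26.87 in telomerase 3. The genes were chosen from this contrast and no share over all genes was computed, so nothing is read from it.

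**Figure D2:**
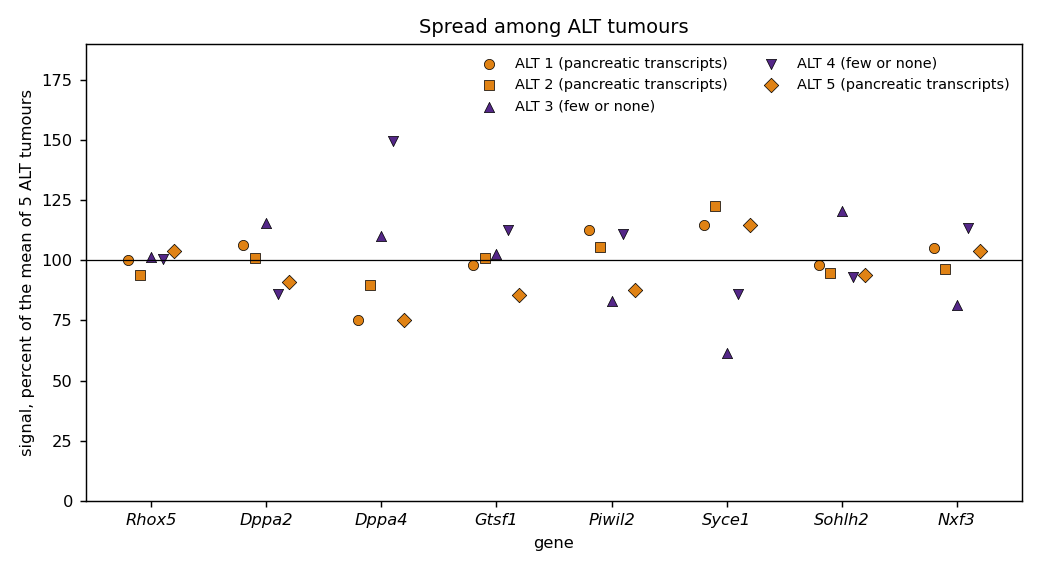
Signal of each ALT tumour as a percent of the mean of the 5 ALT tumours, for the 8 genes whose ALT and telomerase values did not overlap; orange marks arrays with pancreatic transcripts and purple those with few or none. Rhox5 points lie close to the line at 100, Dppa4 is higher in the purple points, and Syce1 is higher in the orange ones.

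The rest of the germline and pluripotency programme was mostly at low signal. Other members of these pathways were taken from lists that hold none of the 10 genes, and ALT was compared with telomerase by limma across all 12376 genes above a filter on low signal. By that test 17.5% of all genes passed an adjusted p of 0.05, 7.47% higher and 10.1% lower in ALT, with a median log2 change of −0.01, and 31.4% had an unadjusted p under 0.05. The filter removed *Sohlh2* and *Dazl* and kept 8 of the 10 members. Background rates for the lists below are these shares.

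Of the piRNA pathway 22 of 24 listed genes were on the array and 6 were tested; 0 passed limma, and 0 had an unadjusted p under 0.05 (median log2 change 0.13). In 19 of the 22 no array reached a signal of 100. *Ddx4*, the germ cell helicase, read 1.06 to 10.9 in ALT and 6.04 to 20.02 in telomerase tumours. *Mael*, needed for transposon silencing, read 1.00 to 6.51 in ALT and 1.00 to 8.50 in telomerase tumours, and the other PIWI genes *Piwil1* and *Piwil4* stayed below 25 in every array. *Gtsf1* and *Piwil2* were thus higher in ALT tumours, while 0 of the 6 tested genes of this list passed. *Piwil2* itself stayed below 100 in every array, like most of the list.

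Of the meiosis genes 35 of 38 were on the array and 14 were tested; 2 rose and 0 fell (median log2 change 0.05), and 6 had an unadjusted p under 0.05. *Tex14*, which holds open the bridges between germ cells, was at 137, 177, 164, 231 and 90.8 in ALT 1 to 5, against 9.09, 14.2 and 15.4 in telomerase 1 to 3, and 19.5 in the parental tumour. It rose by 2.56 on the log2 scale (SE 0.241, limma adjusted p = 0.000152) and passed whichever array was left out. As its telomerase signals are below 16, the size of the change depends on the pseudocount (3.50 with 1, and 1.51 with 64). *Stra8*, a gene switched on by retinoic acid before meiosis, gave 822, 505, 434, 514 and 124 in ALT 1 to 5, against 101, 142 and 156 in telomerase 1 to 3 (log2 change 1.55, SE 0.467, adjusted p = 0.0471). ALT 5 lay within the telomerase range. Its call was kept with 1 of 8 arrays left out, ALT 5 (adjusted p = 0.000603), and reached 0.165 without telomerase 1. *Sycp1*, *Sycp2*, *Dmc1* and *Hormad1*, core genes of chromosome pairing, stayed below 28 in every array. Not all of the list was low: *Syce2* read 794 to 1185 in ALT and 1010 to 1423 in telomerase tumours. It did not pass (log2 change −0.33, limma adjusted p = 0.155). *Psmc3ip* and *Mnd1*, whose products form a recombination complex linked to ALT in human cells, did not pass, at −0.04 (adjusted p = 0.853) for the first and −0.30 (adjusted p = 0.141) for the second on the log2 scale.

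Of the genes of germ cell development 20 of 22 were on the array and 6 were tested, and 2 rose and 1 fell. *Kit*, the stem cell factor receptor, which early T-cell precursors also carry, averaged 246 ± 28.6 in ALT and 148 ± 46.3 in telomerase tumours (SD, n = 5 and 3; log2 change 0.71, adjusted p = 0.0183). *Taf4b*, a gonad-enriched part of the basal transcription machinery, rose by 0.42 (adjusted p = 0.0377), and *Nanos1*, an RNA-binding repressor, fell by 0.80 (adjusted p = 0.00562). Leaving out telomerase 1 or telomerase 3 ended the *Kit* call (adjusted p of 0.0874 and 0.0649), and the *Taf4b* call was kept with 2 of 8 arrays left out (adjusted p from 0.0205 to 0.136). With the mean of its probe sets *Kit* did not pass either (adjusted p = 0.0775).

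Of the pluripotency genes 29 of 34 were on the array and 13 were tested; 0 rose and 1 fell. *Trim71*, a translational repressor of the embryo and target of let-7, was the gene that fell, with 8.56, 8.32, 12.4, 5.07 and 9.79 in ALT 1 to 5, against 118, 185 and 169 in telomerase 1 to 3, and 81.1 in the parental tumour. Its log2 change was −2.79 (limma adjusted p = 2.53e-05). With ALT signals all below 16, that size was −4.03 with a pseudocount of 1 and −1.59 with 64. The other probe set averaged 6.94 in ALT and 53.9 in telomerase tumours. *Nanog* read 6.03 to 11.2 in ALT and 2.16 to 6.88 in telomerase tumours, *Zfp42* stayed below 18 in every array, and the germ cell gene *Dppa3* read 26.4 to 41.1 in ALT and 19.9 to 34.0 in telomerase tumours (log2 change 0.24). *Dppa5a*, listed with the same family name, read 47.4 to 58.1 in ALT and 44.8 to 59.0 in telomerase tumours.

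Of 44 listed genes of X-linked germline families 17 were on the array under those names and 5 were tested; 0 passed limma and 1 had an unadjusted p under 0.05. All 17 stayed under a signal of 100 in every array. *Rhox6*, *Rhox9* and *Rhox13*, the other homeobox genes of the *Rhox5* cluster measured here, read 2.29 to 16.7 in ALT and 1.00 to 9.55 in telomerase tumours. *Nxf2*, the paralogue of *Nxf3*, read 12.8 to 19.4 in ALT and 4.47 to 8.01 in telomerase tumours, values below the filter. Markers of whole gonadal cells were also mostly low. The summed signal of 14 late spermatid genes was 372 to 414 in ALT and 262 to 344 in telomerase tumours. The protamine genes *Prm1* and *Prm2* were at 34 or less in every array. *Prm3*, another protamine gene, read 56.7 to 72.6 in ALT and 53.0 to 71.0 in telomerase tumours. *Spata3*, the only gene of that list above 100 in any array, read 78.4 to 151 in ALT and 60.5 to 85.5 in telomerase tumours. The sum of 8 Sertoli cell genes was 152 to 208 in ALT and 149 to 200.4 in telomerase tumours, and that of 7 oocyte genes was 135 to 177 in ALT and 185 to 265 in telomerase tumours. *Amh*, a Sertoli marker that was the brightest of its list, read 80.4 to 112 in ALT and 88.3 to 99.4 in telomerase tumours.

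A list of genes that act on the silencing of germline promoters holds mostly repressors, and also the enzymes *Tet1*, *Tet2* and *Tet3*, which oxidise methylated CpGs and so lead to their loss. Of its 37 genes 35 were on the array and 34 were tested. Of these 3 rose and 5 fell, a share of 23.5% against 17.5% of all genes, and their median log2 change was −0.04. *Dnmt3b*, an enzyme that places new CpG methylation, was at 224, 187, 279, 419.7 and 317 in ALT 1 to 5, against 842, 1092 and 888 in telomerase 1 to 3, and 715 in the parental tumour. It fell by 1.71 on the log2 scale (SE 0.223, limma adjusted p = 0.000846). Its second probe set averaged 206 in ALT and 606 in telomerase tumours, and the call was kept under 22 of 22 other settings. *Dnmt3a*, the other enzyme of that kind, was at 624, 621, 692, 694 and 749 in ALT 1 to 5, against 1224, 1171 and 1115 in telomerase 1 to 3 (log2 change −0.78, SE 0.0887, adjusted p = 0.00044), and was lower in each of its 5 probe sets. For both enzymes the groups did not overlap. The *Dnmt3a* change was −0.74 in the arrays with pancreatic transcripts (3 ALT tumours against 1, adjusted p = 0.0937) and −0.78 in those with few or none (2 against 2, adjusted p = 0.0156).

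The maintenance enzyme *Dnmt1* had a value of 0.11 (adjusted p = 0.279) and its partner *Uhrf1* one of 0.22 (adjusted p = 0.143), and the remodeller *Hells*, needed for methylation of repeats, had −0.76 (adjusted p = 0.0577). *Kdm5c*, a histone demethylase reported to help silence germline genes in mouse, fell by 1.45 (adjusted p = 0.00019) in its brightest probe set, at 177 to 283 in ALT and 571 to 625 in telomerase tumours. Its 8 other probe sets had log2 differences from −0.49 to 0.23, and with the mean of all probe sets the change was −0.33 (adjusted p = 0.0566). *Mbd2*, which reads methylated CpGs, rose by 0.58 (adjusted p = 0.00128). The remaining calls, named after their values were seen, were *Hdac2* (−0.43), *Trim28* (−0.24), *Atf7ip* (0.59) and *E2f6* (0.49). *E2f6*, a repressor of meiotic genes, pointed the other way in its second probe set (log2 difference −1.33), and so did *Atf7ip* in 2 of its 3. *Trim28* passed with 2 of 8 arrays left out (adjusted p from 0.0375 to 0.164). *Mga*, *Pcgf6*, *L3mbtl2*, *Ehmt2* and *Setdb1* did not pass (log2 changes from −0.08 to 0.11).

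**Figure D3:**
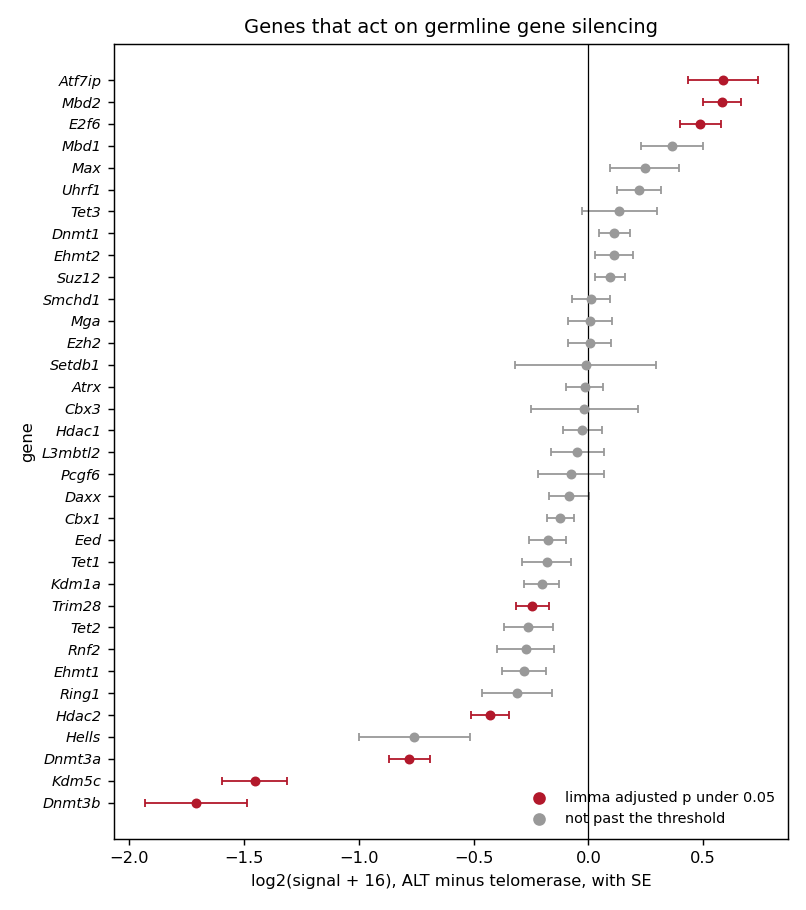
Log2(signal + 16) of ALT minus telomerase tumours (points) with its standard error (bars) for the 34 tested genes of the silencing list, red where limma's adjusted p was under 0.05. Dnmt3b and Kdm5c lie farthest to the left and Dnmt3a follows, while Dnmt1 lies near 0; the Kdm5c point is its brightest probe set, and E2f6 points the other way in its second probe set.

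The 10 genes lie on 7 chromosomes, with pairs on X, 16 and 17. Their nearest neighbours among the genes on the array, in RefSeq gene order, were looked at after the data had been seen. Genes not measured were skipped, so a neighbour named here need not be the adjacent gene. Of 54 protein-coding neighbours, up to 3 on each side of a member, 37 were tested and 9 rose and 1 fell, against background shares of 7.47% and 10.1%. Around *Rhox5* no tested neighbour passed: *Ndufa1* and *Rnf113a1*, both on the same side, had log2 changes of 0.10 and −0.13. *Gm9*, on that side, and *Rhox6*, *Rhox9* and *Rhox13*, on the other, were below the filter and were not tested. Next to *Nxf3* among measured genes was *Bex2*, at 478 ± 102 in ALT and 23.0 ± 21.9 in telomerase tumours (SD, n = 5 and 3; log2 change 3.78, limma adjusted p = 6.59e-05). *Bhlhb9*, the next measured gene on that side, fell by 0.59 (limma adjusted p = 0.00423).

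Around *Dppa4* and *Dppa2* several genes were higher together. Of the 10 measured genes on each side 17 were tested and 8 rose and 1 fell. On this chromosome 7.79% of 411 tested genes rose and 16.1% fell. *Trat1*, a T-cell receptor adaptor and the second measured gene past *Dppa2*, was at 1992, 1275, 1218, 1629.6 and 1578 in ALT 1 to 5. It was at 157, 352 and 153 in telomerase 1 to 3 (log2 change 2.79, SE 0.259, limma adjusted p = 0.000142), with 159 in the parental tumour. *Morc1*, a germline transposon silencer between *Dppa2* and *Trat1*, was at 501, 421, 405, 442 and 374 in ALT 1 to 5, against 210.1, 214 and 212 in telomerase 1 to 3 (log2 change 0.96, adjusted p = 0.000385). *Cd96* and *Plcxd2*, on the other side, rose by 0.85 (adjusted p = 0.00281) and 0.63 (adjusted p = 0.00121). *Retnlb*, the next measured gene after *Trat1*, did not pass (−0.04, limma adjusted p = 0.978). The calls of *Trat1*, *Morc1*, *Cd96* and *Plcxd2* were kept with each of 8 arrays left out. Among the other calls, *Cd200* rose by 1.10 (limma adjusted p = 0.00974) and was kept with 7 of 8 left out. *Btla* was kept with 0 of 8 left out and *Dzip3*, the gene that fell, with 1. With the mean of probe sets *Cd47* had 0.03 (adjusted p = 0.905, against 0.78 in its brightest) and *Abhd10* 0.08 (adjusted p = 0.574, against 0.52), and both calls were lost.

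**Figure D4:**
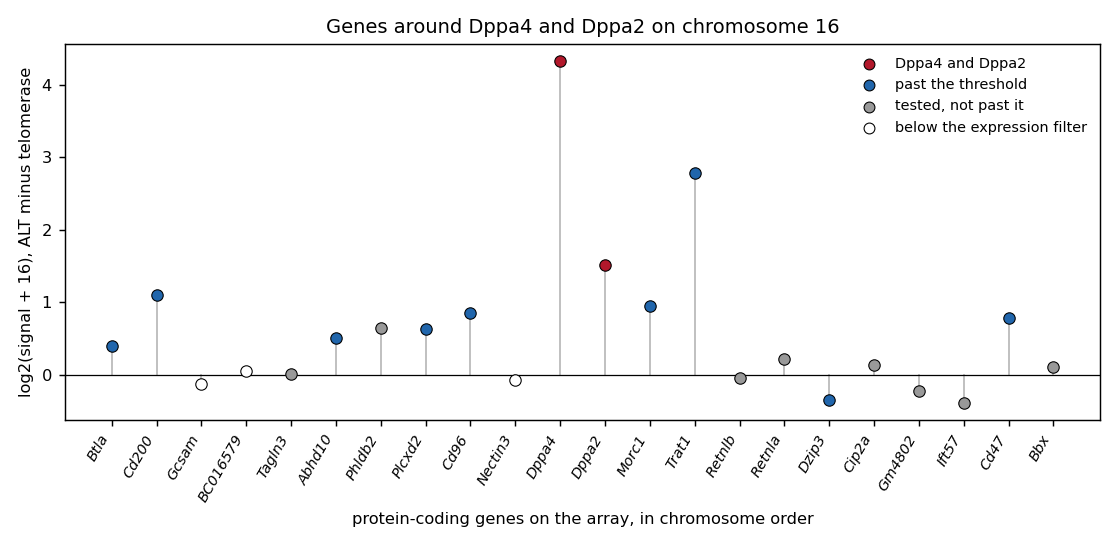
Difference in log2(signal + 16), ALT minus telomerase, for the protein-coding genes on the array around Dppa4 and Dppa2 (red), in chromosome order; blue genes passed limma's adjusted p of 0.05, grey ones did not, and open ones were below the expression filter. The tested genes from Plcxd2 to Trat1 are all higher in ALT, with Dppa4 (4.33) and Trat1 (2.79) the farthest from 0.

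Outside these pathways, the 5 genes whose profile over the 9 arrays was nearest to the mean profile of the 10 genes were *Gm9222*, *Akr1c12*, *C330018D20Rik*, *Noxred1* and *Tex14*. The measure was the root-mean-square difference of centred log2 values, from 0.129 for *Gm9222* to 0.287 for *Tex14*. The members themselves lay farther from their mean profile, from 0.611 for *Syce1* to 2.17 for *Rhox5*. Nearness to that mean is thus not likeness to each member. *Gm9222* gave 922 to 1118 in ALT and 147 to 189 in telomerase tumours, with 186 in the parental tumour, through a probe set with the x mark. *Akr1c12*, an aldo-keto reductase gene, gave 272 to 461 in ALT and 22.1 to 37.3 in telomerase tumours. Such genes were found by their likeness to the group difference, so their own difference between groups is a description.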

How the data were processed

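Total RNA of 9 tumours was hybridised to Affymetrix mouse expression arrays. The deposited values are signal intensity per probe set. Per the submitters' processing notes they come from MAS5, and the sources used here give no scaling target. Groups came from the labels. The array annotation named 1 gene for 34958 probe sets, several for 932 and none for 9211.

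Member signals were used as deposited. Each other gene was read through its brightest probe set, genes in the lowest 40% of probe set means (under 25.3) were left out, and log2(signal + 16) was fitted with limma 3.58.1 in R 4.3.3 (5 ALT against 3 telomerase tumours, intensity trend, two-sided, Benjamini-Hochberg over 12376 genes, threshold 0.05). The parental tumour was only described. The fit was tested on simulated data. Members and lists were chosen with earlier results of these data known. Named by rule were all members, up to 4 called genes of each list with the smallest p, and the 5 nearest profiles. Other list genes, among them those at low signal or not past the threshold, are examples picked outside that rule. Neighbours, and the comparisons within arrays with or without pancreatic transcripts, were added after the data had been seen. Alternatives changed the filter, pseudocount, normalisation, probe set rule, variance model, threshold, the place of the parental tumour, a block for the replicate number and the arrays included. Plots used Python 3.11.15, pandas 2.3.3 and matplotlib 3.10.9.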

Additional observations from a re-analysis of the deposited data

Results flagged for a closer look

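ALT 3 stood apart from the other ALT tumours in *Sohlh2*, with a signal of 35.1 against 27.1 to 28.5 in the other 4. On the log2 scale the gap to the nearest of them was 0.809 of the group's range, above Dixon's 95% critical value of 0.71 for 5 samples. It was the only such case among 13 member probe sets; chance gives about 1 in 20 for each, or 0.65 cases over the 13.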

How the results depend on the processing

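The log2 difference of the members kept its sign under all alternatives, with 1 exception, the dimmer *Dazl* probe set (-0.11 against 0.44). The pseudocount moved *Rhox5* (6.14 to 7.46), *Dppa4* (3.19 to 5.10) and *Nxf3* (3.64 to 6.77) most. *E2f6* turned to -0.42 with the mean of probe sets. Of all genes, 2170 passed, 991 with a replicate block, 833 within arrays without pancreatic transcripts (2 ALT against 2 telomerase tumours), 336 within those with them (3 against 1, the lone tumour being assumed to vary like the others), and 1163 to 2096 with an array left out, the lowest without telomerase 1. With the replicate block 0 genes of germ cell development and 4 of the silencing list passed. Within arrays without pancreatic transcripts 1 piRNA gene, 0 genes of germ cell development and 5 of the silencing list passed, and within those with them 1 meiosis gene, 0 and 2. These splits hold few arrays, and the lost calls say nothing on the pancreatic transcripts: the log2 changes of *Kit* (0.70 and 0.79, against 0.71), *Nanos1* (-0.77 and -0.93, against -0.80) and *Taf4b* (0.35 and 0.62, against 0.42) kept their sign. Without the filter 1 piRNA gene, 1 meiosis gene and 1 gene of X-linked families passed, and with a filter at 60% 0 pluripotency genes. Median centring and robust moderation left 1 meiosis gene each, and the parental tumour in the telomerase group gave 4. With the mean of probe sets, or without the trend, 1 gene of X-linked families passed. At an adjusted p of 0.1 the counts were 4 (meiosis), 2 (pluripotency) and 1 (X-linked). With an array left out the counts ran from 1 to 2 (meiosis), 1 to 4 (germ cell development), 1 to 2 (pluripotency, the higher without ALT 3), 0 to 1 (X-linked, the higher without ALT 5), 6 to 8 (silencing list) and 0 (piRNA). The meiosis count was 1 without ALT 1, 2 or 4 or any telomerase tumour, and the germ cell count 1 without telomerase 1 or 3. Deviations of same-numbered tumours correlated at -0.302, -0.402 and -0.572. The tumours of each such pair differed in pancreatic transcripts, so these correlations cannot decide whether the numbers mark pairs. The main fit left the numbers unpaired. The replicate block kept the *Dnmt3a*, *Dnmt3b*, *Kdm5c*, *Tex14* and *Trim71* calls. The value of 16 is the pseudocount and not a measured background level. With no detection calls, signals near or below it cannot be told from background here.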

Other observations

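Some germline genes of the lists were high in some ALT tumours and not in others, and did not pass the group test. *Gpat2*, a mitochondrial acyltransferase gene of the testis that acts in piRNA production, read 174 in ALT 2 and 74.4 in ALT 4, and 9.36 to 9.90 in the other 3 ALT tumours, against 3.31 to 10.1 in telomerase tumours (log2 change 1.15, limma adjusted p = 0.26). *Tex19.2*, a germline gene tied to control of transposons, read 228 in ALT 4, 134 in ALT 3 and 55.8 in ALT 1, and 26.4 and 17.3 in ALT 2 and ALT 5, against 19.9 to 28.8 in telomerase tumours (log2 change 1.04, adjusted p = 0.252). *Zbtb16*, a factor of spermatogonial stem cells and of innate-like T cells, read 124, 162 and 170 in ALT 1, 2 and 5 and 64.9 in telomerase 3, the arrays with pancreatic transcripts, and 16.6 and 30.9 in ALT 3 and 4 and 8.37 and 1.78 in telomerase 1 and 2. The part of the pancreatic transcripts in the *Zbtb16* values was not tested.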
